A study of Mus musculus with 4 samples.

Results

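Vwf-positive stem cells of the control library were chosen by their own measured Vwf count: each cell was thinned at random to 3000 UMIs (unique molecular identifiers, each standing for 1 captured transcript), and a cell with at least 1 Vwf UMI among them was a member. They numbered 66 of 2311 control cells, all with 3000 UMIs or more, 500 genes or more and no more than 10% of UMIs from mitochondrial genes, and were set against the 2245 cells of the same library with 0 Vwf UMIs; the whole series held 9727 such cells. Vwf chose the cells, so its thinned counts are a description with no test. The study sorted long-term hematopoietic stem cells (LT-HSCs) by flow cytometry from crushed limb and sternum marrow of C57BL/6 mice aged 8-11 weeks and made 1 droplet library (10x Single Cell 3' v2) for each of 4 genotypes: NPMc+, Flt3-ITD, NPMc+/Flt3-ITD and the control, Mx (MxCRE). NPMc+ is a nucleophosmin displaced to the cytoplasm and Flt3-ITD an internal tandem duplication in the receptor gene Flt3, both known from acute myeloid leukemia, and NPMc+/Flt3-ITD carries both; the labels do not say whether the mutants also carry MxCRE. MxCRE is a Cre recombinase under the interferon-inducible Mx1 promoter, which also acts outside blood cells; whether the control mice were induced, and how many mice went into a library, is not given in the sources used here. Cells of 1 library are not replicates of a condition, so no p-value was computed within Mx, and the ranges in parentheses there are exact 95% intervals that cover counting error only.

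Vwf encodes von Willebrand factor, the adhesive glycoprotein that tethers platelets to damaged vessel walls, and is made by megakaryocytes and endothelial cells. In mouse bone marrow, stem cells that express Vwf are known as a platelet-biased class, primed for megakaryocyte genes, while stem cells without it are known to hold more of the lymphoid-biased activity.

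Pf4, a platelet chemokine gene, Cavin2, which encodes a caveola coat protein abundant in platelets, and Nupr1, which encodes a stress-induced nuclear protein, were higher in the control Vwf-positive cells and also rose in Vwf-positive cells across the mutant libraries. The 250 bases before their transcription starts are shown because these are the genes with values in both analyses that the results turn on. The Mx calls of Pf4 and Nupr1 were lost with a second random draw of the thinning, at log2 ratios of 0.09 and 0.18, and that of Pf4 also without the 1% of cells that held most of it (-0.18) and in male cells alone (-1.79). Cavin2 was at 0.84, 0.96 and 0.999 under these alternatives. The sequences are from the RefSeq promoter table on GRCm38.p6, read 5′ to 3′ on the strand of the gene: Pf4 at chr5:90772185-90772434 (plus strand), Cavin2 at chr1:51288876-51289125 (plus strand) and Nupr1 at chr7:126625471-126625720 (minus strand). Capitals mark a match, on either strand, to any of 3 motifs that do not overlap one another.
Pf4: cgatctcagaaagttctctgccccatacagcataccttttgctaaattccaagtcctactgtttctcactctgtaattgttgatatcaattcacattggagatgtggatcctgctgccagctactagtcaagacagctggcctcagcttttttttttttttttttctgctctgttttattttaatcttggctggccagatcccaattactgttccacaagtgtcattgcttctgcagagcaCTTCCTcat
Cavin2: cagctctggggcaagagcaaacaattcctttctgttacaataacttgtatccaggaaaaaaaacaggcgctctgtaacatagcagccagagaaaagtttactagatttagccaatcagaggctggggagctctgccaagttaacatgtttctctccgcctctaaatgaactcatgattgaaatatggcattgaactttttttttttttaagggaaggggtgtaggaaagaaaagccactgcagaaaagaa
Nupr1: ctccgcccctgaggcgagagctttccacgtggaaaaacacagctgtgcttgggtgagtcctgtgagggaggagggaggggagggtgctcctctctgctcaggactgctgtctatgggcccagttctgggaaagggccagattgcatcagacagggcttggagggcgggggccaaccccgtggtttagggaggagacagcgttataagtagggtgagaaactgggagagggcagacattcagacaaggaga
The motif of GATA factors was searched as AGATAA, and 9.99% of the 32851 promoter windows in the table held it. The motif of ETS factors was searched with AGGAAG and with a C in place of the first A, and 39.2% of windows held either. The motif of RUNX factors was searched as TGTGGT, which 14.05% of windows held. The Pf4 window held 1 ETS match, 9 bases before the start, and the letters of the 3 motifs were not in the Cavin2 and Nupr1 windows. Of 9 genes looked up, 8 were matched in the table, and Vwf was not among them. A window of Fhl1 held 2 RUNX matches, 97 and 31 bases before the start, and a window of Meg3 held 1, at 225 bases. Any window listed on a chromosome that holds none of these genes was left out. The remaining windows kept for the 8 genes held no match.

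Depth differed little between the classes. Vwf-positive cells had a median of 8750 UMIs and 3112 genes, against 8331 UMIs and 3064 genes in Vwf-zero cells. At 3000 UMIs the median was 1492 genes in Vwf-positive cells and 1497 genes in Vwf-zero cells, and the median mitochondrial share was 0.715% and 0.721%. The Vwf-positive class summed to 628879 UMIs and the Vwf-zero class to 19855649, so values of the Vwf-positive class carry most of the counting error. Over all pairs of libraries 160 barcode sequences were shared as deposited and 42 among kept cells, and 0 of the 66 members had a barcode kept in another library. No doublet caller was applied: 0 of the 66 cells held thinned UMIs of both Xist and a Y-linked gene, against 47 Vwf-zero cells (2.09%), and 2 of the members were among the 1% of cells with the most UMIs.

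Vwf was sparse even in the cells it defined. Of the 66 cells, 63 held exactly 1 thinned Vwf UMI and 3 held 2, so the threshold separated 1 UMI from 0. Just outside it, 108 of the 2245 Vwf-zero cells held Vwf among the UMIs that the thinning had set aside. Counted over all UMIs, 174 cells (7.53%, 6.49 to 8.68%) held Vwf, and the library stood at 10.4 CPM (UMIs per 1000000). Membership depended on the draw: a second random draw chose 62 cells, of which 24 were also among the 66. Vwf (chromosome 6, 125546774 to 125686679, plus strand, mm10) is a protein-coding gene.

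The UMIs set aside by the thinning had not chosen the cells. Among them Vwf stood at 44.1 CPM in the 66 cells (26.5 to 68.9, 19 UMIs), against 9.53 CPM in Vwf-zero cells (7.93 to 11.4, 125 UMIs), a ratio of 4.63 (2.696 to 7.53). A further Vwf UMI was found in 14 of the 66 cells (21.2%, 12.1 to 33.0%), against 4.81% of Vwf-zero cells (3.96 to 5.78%). Read the same way, the ratio was 2.04 (1.51 to 2.72) for NPMc+, 5.78 (2.68 to 11.1) for Flt3-ITD, 6.85 (1.80 to 18.6) for NPMc+/Flt3-ITD. In each of the 4 libraries the interval of the ratio lay above 1.

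At 3000 UMIs per cell, 6.00% of NPMc+ cells (135 of 2250, 5.05 to 7.06%), 2.11% of Flt3-ITD cells (46 of 2175, 1.55 to 2.81%) and 1.07% of NPMc+/Flt3-ITD cells (32 of 2991, 0.733 to 1.51%) were Vwf-positive, against 2.86% of Mx cells (66 of 2311, 2.22 to 3.62%). With 1 library per genotype these shares have no replicate check. Free RNA in the droplets was to be read from cells with markers of other lineages. These had at least 3 UMIs of erythroid, B cell, T or NK, mast or monocyte markers, or 10 of granulocyte markers. Vwf was held by 14 of 413 in NPMc+ (3.39%, 1.87 to 5.62%, median 10911 UMIs per cell). In Flt3-ITD it was held by 3 of 209 (1.44%, 0.297 to 4.14%, median 10247). The counts were 12 of 1381 in NPMc+/Flt3-ITD (0.869%, 0.450 to 1.51%, median 6934) and 1 of 100 in Mx (0.0253 to 5.45%, median 9311). Such cells read free RNA only if they make no Vwf themselves, which was not tested. In Mx 80 of the 100 had T or NK markers. The granule membrane gene Nkg7 gave 2834 of the 3214 UMIs of that list in Mx Vwf-zero cells. The Flt3-ITD, NPMc+/Flt3-ITD and Mx shares of Vwf-positive cells lie within the interval of these marker-bearing cells, which in Mx rests on few cells. The NPMc+ share lies above it. How many of the 66 cells hold Vwf as free RNA cannot be told from these counts.

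Cells with Xist and without Y-linked transcripts (female) were Vwf-positive in 4.46% of cases in Mx (25 of 560, 2.91 to 6.52%), against 2.49% of cells with the opposite pattern (18 of 723, 1.48 to 3.91%). In the mutant libraries the female and male shares were 6.05% and 5.20% (NPMc+), 3.91% and 1.13% (Flt3-ITD), and 5.68% and 0.654% (NPMc+/Flt3-ITD). The female share was the higher in all 4 libraries, with overlapping intervals in Mx and NPMc+. Sex and animal cannot be told apart here.

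**Figure D1:**
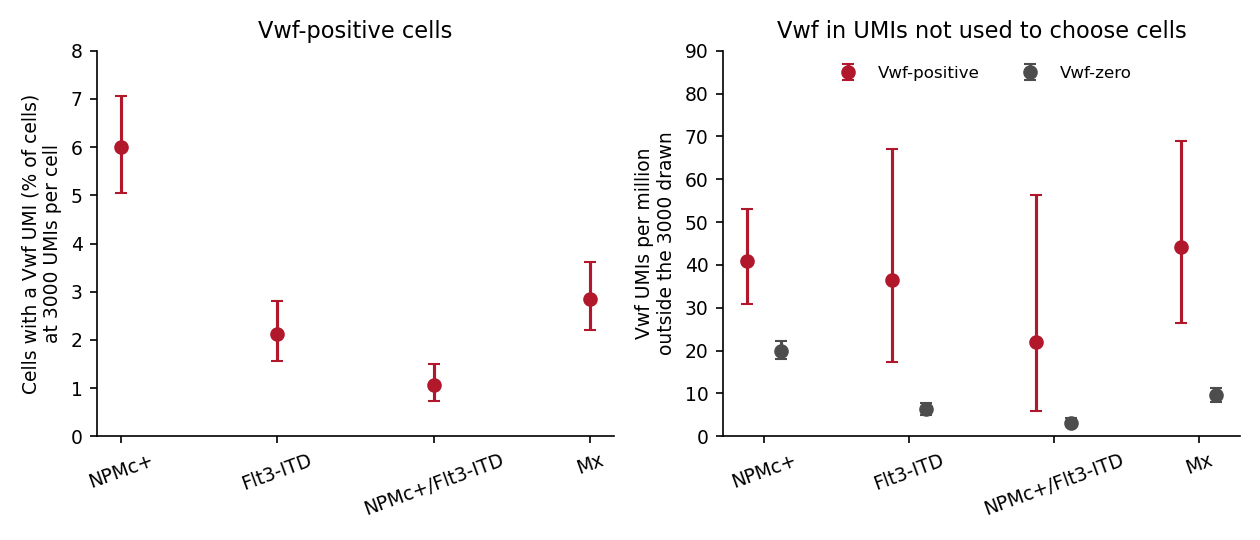
Left, the percentage of cells with at least 1 Vwf UMI at 3000 UMIs per cell in each library. Right, Vwf CPM among the UMIs outside the 3000 drawn, in Vwf-positive (red) and Vwf-zero (grey) cells. Points are single libraries and bars exact 95% counting intervals. The Mx share was 2.86%, and the set-aside UMIs held 44.1 CPM of Vwf in its Vwf-positive cells, against 9.53 CPM in its Vwf-zero cells.

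The label of the class was checked against markers of stem cells and of the cells known to make Vwf. Summed over 10 markers, stem cell genes stood at 1647 CPM in Vwf-positive cells, against 1357 CPM in Vwf-zero cells, and all 10 were detected. Mature megakaryocyte or platelet markers stood at 474 CPM in Vwf-positive cells, against 211 CPM in Vwf-zero cells, with 8 of 10 detected and Gp6 and Tubb1, a platelet collagen receptor gene and a platelet tubulin gene, at 0. Of the 298 UMIs behind this sum 219 were of Pf4, 127 of them in 1 member, and cells with 3 or more thinned UMIs of these markers made up 4.55% of Vwf-positive cells (3 cells) and 4.54% of Vwf-zero cells (102 cells). Endothelial markers stood at 218 CPM in Vwf-positive cells, against 216 CPM in Vwf-zero cells, a ratio of 1.01 (0.844 to 1.19), with 7 of 14 detected and Flt1, Flt4, Stab1, Stab2, Plvap, Mmrn2 and Sox17 at 0. The members held stem cell markers, and summed endothelial markers were level with Vwf-zero cells.

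Of 6777 genes with at least 20 CPM in either class, 289 (4.26%) were 1.5-fold or more above Vwf-zero cells and 345 (5.09%) 1.5-fold or more below them, and the median log2 ratio of all these genes was 0.00. In what follows a gene is called higher or lower in Mx when it is past 1.5-fold, and these shares are the background of each count. Of the 289 higher genes 188 reached 20 CPM only in Vwf-positive cells, and of the 345 lower genes 205 only in Vwf-zero cells. Such genes were let in by the class in which they were high, so the counts, ratios and intervals of calls in Mx are a description. Ratios are of CPM summed over all UMIs of the cells, with Vwf left out of the totals. Every gene was also read in the 108 Vwf-zero cells whose Vwf lay wholly in the set-aside UMIs, against the 2137 cells with no Vwf UMI at all. The 108 cells share no cell with the 66, but they are part of the Vwf-zero class that the 66 were set against and both comparisons use the same 2137 cells, so their values are set side by side and are not independent. The 108 cells held a median of 9722 UMIs, against 8272 in the 2137. Among the 108 cells 0.989% of the 6777 genes were higher and 2.07% lower.

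Genes of the platelet-biased stem cell class were higher in the control Vwf-positive cells in part. Of 27 listed genes with 20 CPM or more, 6 were higher and none lower, with a median log2 ratio of 0.25, against 4.26% and 5.09% of all genes. Of the 6 higher genes, 2 reached 20 CPM only in Vwf-positive cells. In the 108 cells 6 were higher and 1 lower, with a median of 0.26. Per cell, a median of 10 UMIs of the list was found among 3000 in Vwf-positive cells, against 8 in Vwf-zero cells. The ranges, 1 to 22 in Vwf-positive cells and 0 to 24 in Vwf-zero cells, overlapped almost wholly.

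Among the 6 genes, Cavin2 stood at 52.5 CPM in Vwf-positive cells (33 UMIs), against 21.1 CPM in Vwf-zero cells (419 UMIs), a ratio of 2.49 (1.69 to 3.55). Its level in the second set was 57.6 CPM in the cells with set-aside Vwf, against 18.8 CPM in the Vwf-free cells, a ratio of 3.06 (2.33 to 3.98). Sult1a1, a sulfotransferase gene, stood at 65.2 CPM in Vwf-positive cells (41 UMIs), against 28.6 CPM in Vwf-zero cells (568 UMIs), a ratio of 2.28 (1.62 to 3.13), and had a ratio of 1.83 (1.37 to 2.40) in the 108 cells. Both genes were higher in each set of cells with Vwf. In female cells alone the log2 ratio of Sult1a1 was -0.75.

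Selp encodes P-selectin, which platelets store in their granules and show on activation. It stood at 60.4 CPM in Vwf-positive cells (38 UMIs), against 27.2 CPM in Vwf-zero cells (541 UMIs), a ratio of 2.22 (1.55 to 3.08). In the 108 cells its ratio was 1.26 (0.891 to 1.74), and with the second draw its log2 ratio was 0.07, so the size of the Selp difference depends on which cells were drawn. Cpne8, which encodes a calcium-dependent membrane-binding copine, had a ratio of 3.28 (2.19 to 4.76) in the 66 cells and 1.32 (0.824 to 2.03) in the 108 cells. The other genes of the 6 were Fhl1 and Ctnnal1. Fhl1, which encodes a LIM domain protein and is named here after its values were seen, stood at 42.9 CPM in Vwf-positive cells (27 UMIs), against 24.1 CPM in Vwf-zero cells (478 UMIs), with ratios of 1.78 (1.16 to 2.63) in the 66 cells and 1.97 (1.45 to 2.63) in the 108 cells.

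Clu, which encodes the secreted chaperone clusterin, lay under 20 CPM in both classes, at 19.1 CPM in Vwf-positive cells (12 UMIs), against 4.23 CPM in Vwf-zero cells (84 UMIs), a ratio of 4.51 (2.24 to 8.30). In the 108 cells the Clu ratio was 7.90 (4.83 to 12.7). Aldh1a1, a retinal dehydrogenase gene, was at 92.2 CPM in Vwf-positive cells (58 UMIs), against 62.8 CPM in Vwf-zero cells (1246 UMIs), with ratios of 1.47 (1.11 to 1.91) in the 66 cells and 1.86 (1.54 to 2.23) in the 108 cells. Both intervals of both genes lay above 1, but in male cells alone the log2 ratio of Aldh1a1 was -0.43.

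Receptors and transcription factors of the megakaryocyte route differed by less than 1.5-fold in the 66 cells. Slamf1, which encodes the stem cell surface marker CD150, stood at 36.6 CPM in Vwf-positive cells (23 UMIs), against 25.7 CPM in Vwf-zero cells (511 UMIs), with ratios of 1.42 (0.893 to 2.16) in the 66 cells and 1.60 (1.16 to 2.16) in the 108 cells. The ETS factor gene Fli1 had ratios of 1.18 (0.954 to 1.45) and 1.22 (1.04 to 1.41). For both genes the interval held 1 in the 66 cells and lay above 1 in the 108 cells. Itga2b, which encodes the platelet integrin CD41, had ratios of 0.911 (0.669 to 1.21) and 1.16 (0.953 to 1.41), and the stem cell factor gene Gata2 0.911 (0.762 to 1.08) and 1.20 (1.07 to 1.34). Gata1, a factor gene of erythroid cells and megakaryocytes, was at 19.1 CPM in Vwf-positive cells (12 UMIs), against 19.3 CPM in Vwf-zero cells (383 UMIs), with ratios of 0.989 (0.507 to 1.75) and 1.01 (0.632 to 1.54).

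**Figure D2:**
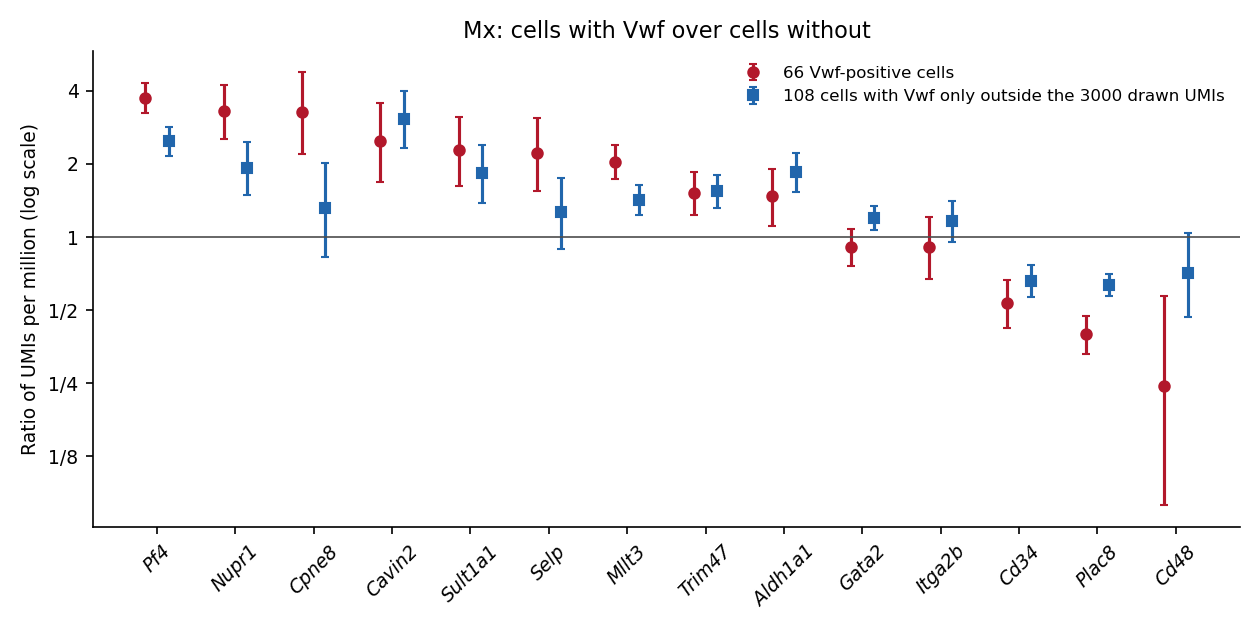
Ratio of CPM (log scale) for 14 genes in Mx. Red circles are the 66 Vwf-positive cells over Vwf-zero cells, and blue squares the 108 cells with Vwf only outside the 3000 drawn UMIs over the cells with no Vwf UMI. Bars are exact 95% counting intervals. Cavin2, at 2.49 and 3.06, lies above 1 in both, and Cd34, at 0.534 and 0.660, lies below 1 in both.

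Of 13 genes of mature megakaryocytes and platelets with 20 CPM or more, 2 were higher, Pf4 and Mylk, and 1 was lower, Gp5, with a median log2 ratio of 0.23. Mylk reached 20 CPM only in Vwf-positive cells and Gp5 only in Vwf-zero cells. Pf4 stood at 348 CPM in Vwf-positive cells (219 UMIs), against 92.9 CPM in Vwf-zero cells (1845 UMIs), a ratio of 3.75 (3.24 to 4.31). A single member held 127 of its UMIs, and with the top cell of each class left out the log2 ratio was 0.76 in place of 1.91. At 3000 UMIs, cells with a Pf4 UMI made up 21.2% of the Vwf-positive class (14 of 66, 12.1 to 33.0%), against 15.9% of the Vwf-zero class (357 of 2245, 14.4 to 17.5%). The intervals of these shares overlapped.

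The Pf4 level thus depended on few cells. With the second draw its log2 ratio was 0.09, in male cells alone -1.79 and in female cells alone 3.20. In the second set Pf4 was at 212 CPM in the cells with set-aside Vwf, against 85.4 CPM in the Vwf-free cells, a ratio of 2.48 (2.16 to 2.83). Gp5, a platelet glycoprotein gene, stood at 15.9 CPM in Vwf-positive cells (10 UMIs), against 26.7 CPM in Vwf-zero cells (531 UMIs), a ratio of 0.595 (0.284 to 1.10), but its ratio was 1.64 (1.20 to 2.20) in the 108 cells. Gp1bb, another platelet glycoprotein gene, was at 17.5 CPM in Vwf-positive cells (11 UMIs), against 11.9 CPM in Vwf-zero cells (236 UMIs), with ratios of 1.47 (0.725 to 2.68) and 1.46 (0.876 to 2.32) and a log2 ratio of -1.14 with the second draw. Mylk, the myosin light chain kinase gene, had ratios of 2.11 (1.19 to 3.50) on 16 UMIs and 1.29 (0.749 to 2.08).

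Genes of LT-HSC identity differed in 1 direction where they were called. Of 29 with 20 CPM or more, 5 were higher and none lower, 25 had a log2 ratio above 0, and the median was 0.34; in the 108 cells 4 were higher and none lower, with a median of 0.15. Of the 5 genes higher in the 66 cells, 1 reached 20 CPM only in Vwf-positive cells. A median of 23 UMIs of the list was found per Vwf-positive cell at 3000 UMIs, against 19 per Vwf-zero cell. Mllt3, which encodes a chromatin reader known to maintain stem cells, stood at 254 CPM in Vwf-positive cells (160 UMIs), against 125 CPM in Vwf-zero cells (2480 UMIs), with ratios of 2.04 (1.73 to 2.39) in the 66 cells and 1.42 (1.23 to 1.64) in the 108 cells. Trim47, a tripartite motif gene, stood at 162 CPM in Vwf-positive cells (102 UMIs), against 107 CPM in Vwf-zero cells (2124 UMIs), with ratios of 1.52 (1.23 to 1.85) and 1.54 (1.32 to 1.79). In female cells alone the median of the list was -0.07.

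The core stem cell genes differed by less. Procr, which encodes the endothelial protein C receptor and marks LT-HSCs, had ratios of 1.28 (1.01 to 1.60) in the 66 cells and 1.03 (0.850 to 1.24) in the 108 cells, and a log2 ratio of -0.18 in female cells alone. The transcription factor gene Hlf had ratios of 1.13 (0.972 to 1.31) and 0.889 (0.785 to 1.004), and Mecom 1.20 (0.972 to 1.47) and 1.15 (0.983 to 1.34). Cells with thinned UMIs of both Procr and Hlf made up 24.2% of the Vwf-positive class (16 of 66, 14.5 to 36.4%), against 17.4% of the Vwf-zero class (391 of 2245, 15.9 to 19.05%), with overlapping intervals. The imprinted cell cycle inhibitor gene Cdkn1c had ratios of 1.43 (1.04 to 1.93) and 1.25 (0.974 to 1.59) and a log2 ratio of -0.39 when only the thinned UMIs were summed. The imprinted gene Ndn, known for stem cell quiescence, had ratios of 1.59 (1.01 to 2.39) and 1.57 (1.12 to 2.15).

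Of 15 genes with 20 CPM or more that are known to be higher in stem cells of aged mice, 6 were higher in Vwf-positive cells and none lower, with a median log2 ratio of 0.51; in the 108 cells 6 were higher and none lower, with a median of 0.34. The 6 were Selp, Nupr1, Mt1, Sult1a1, Cavin2 and Fhl1, several of which the platelet-biased list also holds. Nupr1 stood at 111 CPM in Vwf-positive cells (70 UMIs), against 33.7 CPM in Vwf-zero cells (670 UMIs), with ratios of 3.30 (2.54 to 4.22) in the 66 cells and 1.93 (1.49 to 2.47) in the 108 cells. A thinned Nupr1 UMI was found in 24.2% of Vwf-positive cells, against 8.06% of Vwf-zero cells. With the second draw its log2 ratio was 0.18. The metallothionein gene Mt1 stood at 81.1 CPM in Vwf-positive cells (51 UMIs), against 32.2 CPM in Vwf-zero cells (639 UMIs), but 29 of the 51 UMIs came from 1 cell, and its log2 ratio was 0.25 with the top cells left out.

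**Figure D3:**
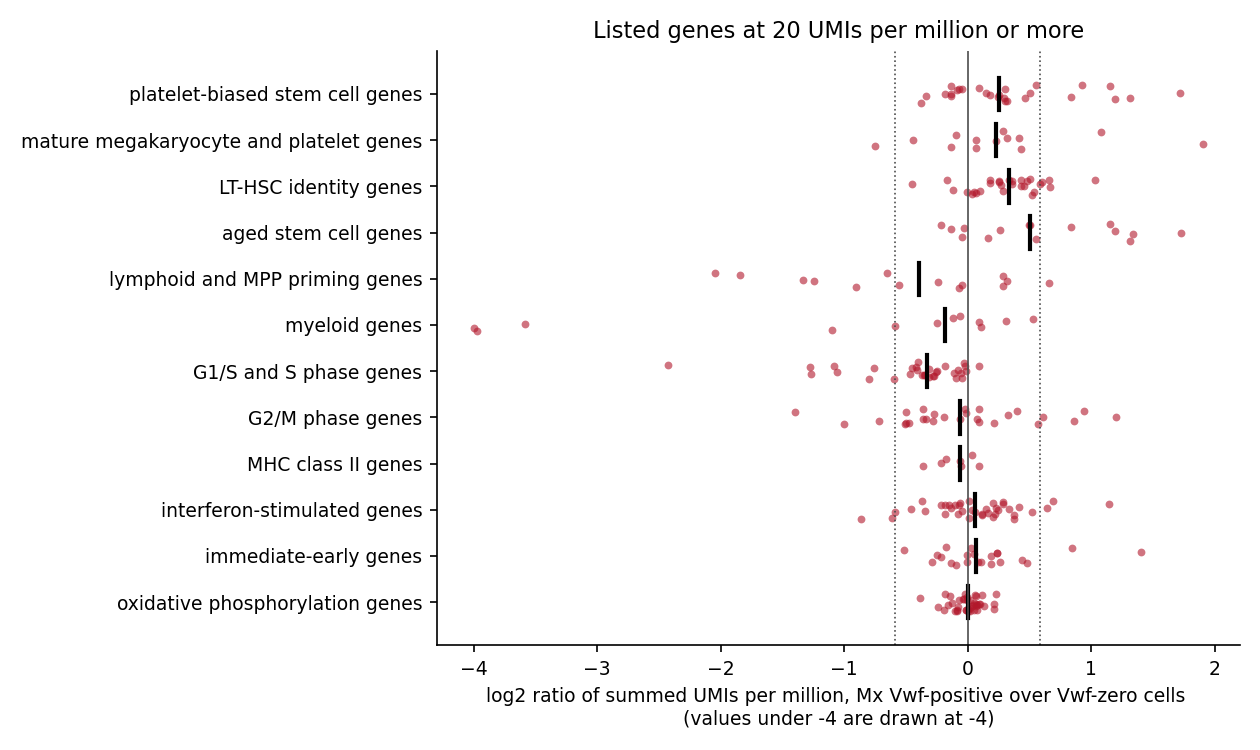
Log2 ratios of CPM, Vwf-positive over Vwf-zero cells of Mx, for the genes of 12 lists with 20 CPM or more. Each point is a gene, black bars are list medians, and dotted lines mark 1.5-fold; values under -4 are drawn at -4. The platelet-biased, LT-HSC and aged stem cell medians lie at 0.25, 0.34 and 0.51, and the lymphoid and G1/S medians at -0.40 and -0.33.

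Of 14 genes of multipotent progenitors (MPPs) and lymphoid-primed cells with 20 CPM or more, 6 were lower, 7 lay within 1.5-fold and 1, Cd52, was higher, with a median log2 ratio of -0.40; in the 108 cells 4 were lower and none higher, with a median of -0.30. A median of 3 UMIs of the list was found per Vwf-positive cell at 3000 UMIs, against 5 per Vwf-zero cell. Plac8, known to increase as stem cells become progenitors, stood at 197 CPM in Vwf-positive cells (124 UMIs), against 497 CPM in Vwf-zero cells (9862 UMIs), 2.52-fold lower (2.11 to 3.03). A thinned Plac8 UMI was found in 31.8% of Vwf-positive cells, against 58.2% of Vwf-zero cells. In the second set Plac8 was at 323 CPM in the cells with set-aside Vwf, against 508 CPM in the Vwf-free cells, a ratio of 0.637 (0.574 to 0.706).

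Cd34, the progenitor sialomucin gene, stood at 126 CPM in Vwf-positive cells (79 UMIs), against 235 CPM in Vwf-zero cells (4669 UMIs), 1.87-fold lower (1.499 to 2.37), and its ratio in the 108 cells was 0.660 (0.567 to 0.764). Cd48, whose protein is absent from the most primitive stem cells, stood at 7.95 CPM in Vwf-positive cells (5 UMIs), against 32.7 CPM in Vwf-zero cells (650 UMIs), 4.12-fold lower (1.76 to 12.7), with a ratio of 0.712 (0.469 to 1.04) in the 108 cells. Flt3, the receptor gene of multipotent progenitors, was at 19.1 CPM in Vwf-positive cells (12 UMIs), against 30.1 CPM in Vwf-zero cells (597 UMIs), with ratios of 0.635 (0.326 to 1.12) and 0.520 (0.311 to 0.819). Of these genes Cd34 had both intervals below 1. Cells with a thinned UMI of Cd48, Flt3 or Cd34 made up 42.4% of the Vwf-positive class (28 of 66, 30.3 to 55.2%), against 53.8% of the Vwf-zero class (1208 of 2245, 51.7 to 55.9%).

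**Figure D4:**
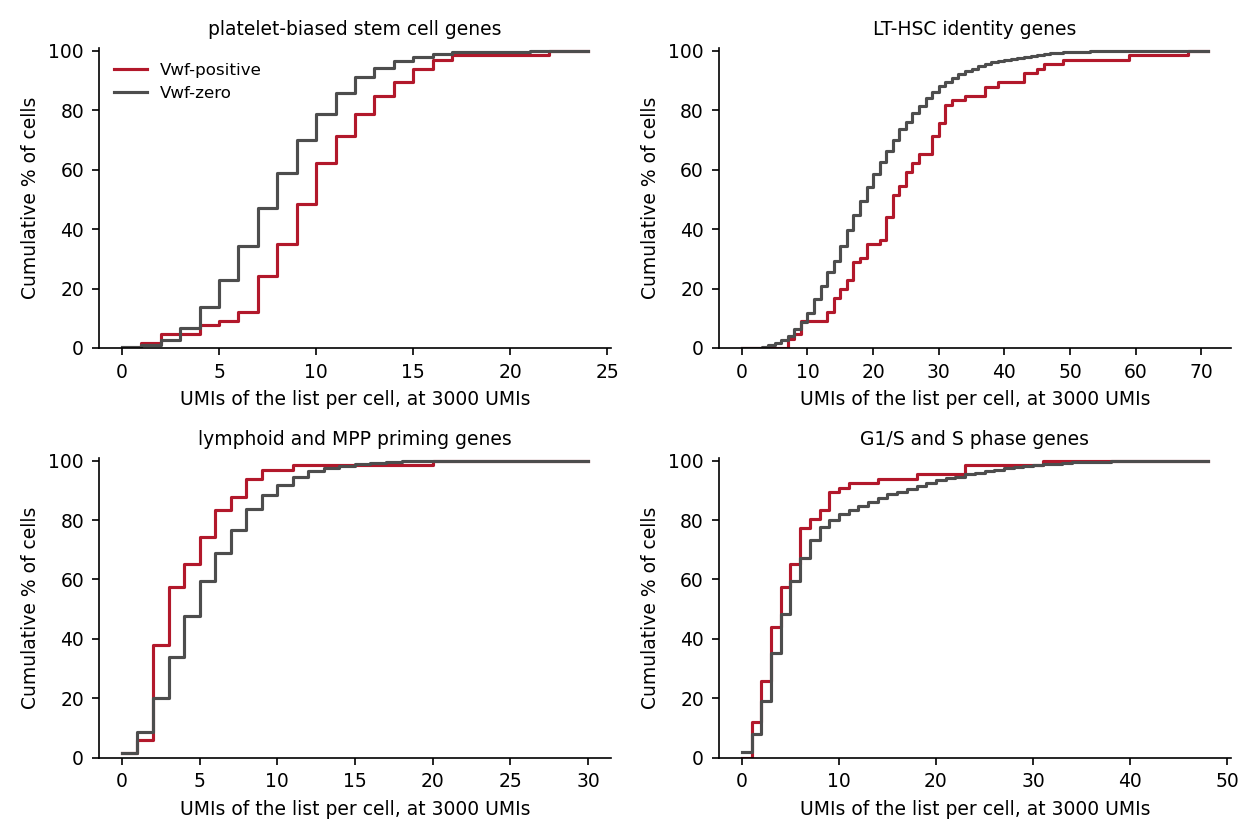
Cumulative percentage of cells by the number of UMIs of a gene list per cell, at 3000 UMIs per cell, in the 66 Vwf-positive cells (red) and the 2245 Vwf-zero cells (grey) of Mx. The red curve runs to the right for platelet-biased and LT-HSC genes and to the left for lymphoid and G1/S genes, with medians of 10, 23, 3 and 4 in Vwf-positive cells, against 8, 19, 5 and 5 in Vwf-zero cells.

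Genes of mature myeloid cells were lower where they were called, and erythroid genes went in both directions. Of 12 myeloid genes with 20 CPM or more, 5 were lower, 7 lay within 1.5-fold and none was higher, where 5.09% of all genes were lower. Of the 5 lower genes, 4 reached 20 CPM only in Vwf-zero cells. The median log2 ratio was -0.18 and the ratio of the summed list 0.869 (0.819 to 0.920). The myeloid genes furthest from no difference were the neutrophil genes S100a8, S100a9 and Ngp, which had 1, 3 and 1 UMIs in Vwf-positive cells, against 1568, 1134 and 495 in Vwf-zero cells. A thinned S100a8 UMI was found in 1.52% of Vwf-positive cells, against 1.38% of Vwf-zero cells, so those of the Vwf-zero class came from few cells. Of 9 erythroid genes 6 lay within 1.5-fold, 1 was higher and 2 lower, with a summed ratio of 0.965 (0.918 to 1.01) and a median of -0.23, against 0.18 in the 108 cells. Car1, an erythroid carbonic anhydrase gene, had 2 UMIs in Vwf-positive cells, against 948 in Vwf-zero cells. Nkg7, a granule membrane gene, stood at 66.8 CPM in Vwf-positive cells (42 UMIs), against 143 CPM in Vwf-zero cells (2834 UMIs), 2.14-fold lower (1.58 to 2.97), with a ratio of 0.791 (0.660 to 0.940) in the 108 cells.

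Markers of other lineages stood higher or lower by type. Granulocyte markers stood at 12.7 CPM in Vwf-positive cells, against 202 CPM in Vwf-zero cells, and T or NK markers at 114 CPM in Vwf-positive cells, against 162 CPM in Vwf-zero cells. Monocyte, macrophage or dendritic markers stood at 30.2 CPM in Vwf-positive cells (19 UMIs), against 3.32 CPM in Vwf-zero cells, with 2 of 8 detected and Csf1r and Adgre1 at 0. A single member had 3 or more thinned UMIs of these monocyte markers. The same cell was the only member with 3 or more of T or NK markers. Cells with 3 or more thinned UMIs of any of 7 other-lineage marker lists, endothelial markers included, made up 4.55% of the Vwf-positive class (3 of 66, 0.947 to 12.7%), against 7.62% of the Vwf-zero class (171 of 2245, 6.55 to 8.79%). This set of 174 cells is wider than the 100 cells of the free RNA reading, which left out endothelial markers and asked for 10 UMIs of granulocyte markers. With those 174 cells left out, 290 genes were higher, 341 lower and the platelet-biased median was 0.29.

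Of 32 genes of DNA replication (G1/S and S phase) with 20 CPM or more, 8 were lower, 24 lay within 1.5-fold and none was higher, 1 had a log2 ratio above 0, and the median was -0.33. Of the 8 lower genes, 4 reached 20 CPM only in Vwf-zero cells. Rrm2, the ribonucleotide reductase subunit gene, stood at 6.36 CPM in Vwf-positive cells (4 UMIs), against 34.2 CPM in Vwf-zero cells (679 UMIs), 5.38-fold lower (2.09 to 19.8). Ung and Uhrf1, genes of base excision repair and of DNA methylation maintenance, were 2.42-fold lower (1.38 to 4.71) and 2.41-fold lower (1.30 to 5.05). The 108 cells did not show this: their G1/S median was -0.03, with 1 gene higher and 1 lower, and the ratio of Rrm2 was 1.12 (0.810 to 1.52).

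Genes of mitosis went in both directions. Of 27 G2/M genes with 20 CPM or more, 4 were higher and 3 lower, with a median of -0.06, against 0.17 in the 108 cells. The proliferation gene Mki67 stood at 20.7 CPM in Vwf-positive cells (13 UMIs), against 28.8 CPM in Vwf-zero cells (571 UMIs), with 8 of the UMIs in 1 member and a ratio of 0.719 (0.380 to 1.24). The cyclin gene Ccnb2 stood at 74.7 CPM in Vwf-positive cells (47 UMIs), against 32.6 CPM in Vwf-zero cells (647 UMIs), with 17 in 1 member, and its log2 ratio was -1.05 with the second draw. Ube2c, which encodes a ubiquitin-conjugating enzyme of mitosis, stood at 7.95 CPM in Vwf-positive cells (5 UMIs), against 21.0 CPM in Vwf-zero cells (416 UMIs), with a ratio of 1.87 (1.34 to 2.56) in the 108 cells. Single cells held a large share of these UMIs.

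Metabolic and housekeeping genes were nearly level between the classes. None of 41 oxidative phosphorylation genes, 25 glycolysis and hypoxia genes, 37 ribosome biogenesis and MYC genes, 83 ribosomal protein genes and 14 mitochondrially encoded genes reached 1.5-fold in either direction, with medians between -0.08 and 0.07. The 7 MHC class II genes also stayed within 1.5-fold. Cd74, the invariant chain gene, stood at 385 CPM in Vwf-positive cells (242 UMIs), against 375 CPM in Vwf-zero cells (7453 UMIs), and its thinned UMIs were found in 43.9% of Vwf-positive cells, against 42.1% of Vwf-zero cells. H2-DMa, which encodes part of the peptide-loading chaperone of MHC class II, had ratios of 0.779 (0.647 to 0.930) and 0.925 (0.817 to 1.04).

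Signalling genes were mixed. Of 39 interferon-stimulated genes with 20 CPM or more, 3 were higher and 3 lower, with a median of 0.06, against -0.16 in the 108 cells. Irgm1, an interferon-inducible GTPase gene, had ratios of 1.61 (1.26 to 2.04) in the 66 cells and 0.684 (0.519 to 0.886) in the 108 cells. Of 22 immediate-early genes 2 were higher and none lower, and the nuclear receptor gene Nr4a2 had ratios of 2.65 (1.92 to 3.57) and 1.05 (0.725 to 1.48). The Notch target gene Hes1 had ratios of 2.77 (2.04 to 3.71) and 0.942 (0.638 to 1.35). Neither Nr4a2 nor Hes1 was higher in the 108 cells. Socs2, which encodes a feedback inhibitor of cytokine signalling, stood at 71.6 CPM in Vwf-positive cells (45 UMIs), against 35.1 CPM in Vwf-zero cells (697 UMIs), with ratios of 2.04 (1.47 to 2.76) and 1.76 (1.36 to 2.26). Of 36 GATA, ETS, RUNX and MEIS/PBX factor genes 1 was higher and 2 were lower. Those lower were Runx3, with ratios of 0.501 (0.296 to 0.795) and 0.774 (0.576 to 1.02), and the progenitor factor gene Myb, with ratios of 0.635 (0.514 to 0.777) and 0.859 (0.753 to 0.977).

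The remaining lists gave few calls. Of 21 genes tied to quiescence, 2 were higher and 1 lower, with a median of 0.05. Of 22 adhesion, homing and niche genes, 1 was higher and 1 lower, with a median of 0.00. Of 27 cytokine receptor and feedback genes, 4 were higher and 2 lower, with a median of 0.17. Of 13 TGF-beta pathway genes, 1 was higher and 1 lower, with a median of 0.17. Of 25 secretory granule and vesicle traffic genes, 3 were higher and 1 lower, with a median of 0.04. Of 9 imprinted genes, 2 were higher and none lower, with a median of 0.25. Of 23 detoxification and metallothionein genes, 3 were higher and none lower, with a median of 0.05.

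Several of the highest ratios came from genes outside the lists. The natural killer receptor gene Ncr1 had 15 UMIs in the Vwf-positive class, 15 of them in a single cell, against 1 in the Vwf-zero class. Smtnl1, a smoothelin-like muscle gene, stood at 28.6 CPM in Vwf-positive cells (18 UMIs), against 6.25 CPM in Vwf-zero cells (124 UMIs), a ratio of 4.58 (2.63 to 7.55), with 2.86 (1.66 to 4.69) in the 108 cells. Erp27, an endoplasmic reticulum protein gene, had ratios of 3.68 (2.30 to 5.63) and 1.51 (0.878 to 2.46), and Slfn2, a schlafen gene, 3.15 (2.25 to 4.32) and 1.57 (1.10 to 2.19). These genes were named for the size of their ratios, and Smtnl1 reached 20 CPM only in Vwf-positive cells. For Kazald1 the ratios were 3.40 (2.03 to 5.40) and 0.804 (0.362 to 1.56), for Extl3 2.78 (1.73 to 4.27) and 0.696 (0.343 to 1.27), and for Ecm1 2.78 (1.55 to 4.63) and 1.12 (0.565 to 2.001). At the low end, Spns3, a transporter gene, had ratios of 0.236 (0.0946 to 0.488) and 1.10 (0.835 to 1.43). The long noncoding RNA gene Meg3 had a ratio of 2.48 (1.79 to 3.37), with 19 of 45 UMIs in 1 cell, and 1.12 (0.787 to 1.56) in the 108 cells.

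The mutant libraries had no part in choosing the 66 cells and allowed a test. Each is of another genotype and gives 1 pair of sums, so differences between genotypes enter the spread of the test. UMIs were summed over Vwf-positive cells (135 for NPMc+, 46 for Flt3-ITD, 32 for the double mutant) and Vwf-zero cells (2115, 2129 and 2959), and edgeR's quasi-likelihood test was fitted with the library as a block. Of 13414 genes, 28 (0.209%) rose and 52 (0.388%) fell at a Benjamini-Hochberg adjusted p under 0.05, and 376 and 592 were past an unadjusted p under 0.05. The calls rest on all 3 libraries together: without NPMc+ or without Flt3-ITD 0 genes passed (unadjusted 258 higher and 480 lower, and 235 and 416), and without NPMc+/Flt3-ITD 2 rose and 8 fell. Without the block 0 genes passed, and by DESeq2 6 rose and 22 fell. Cells with 3 or more UMIs of any of the 7 other-lineage lists numbered 468 (NPMc+), 278 (Flt3-ITD) and 1415 (the double mutant), and with these left out 17 genes rose and 33 fell.

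Pf4 stood at 1230.2 CPM in Vwf-positive cells against 492 CPM in Vwf-zero cells of NPMc+, 458 CPM against 80.5 CPM in those of Flt3-ITD, and 288 CPM against 32.5 CPM in those of NPMc+/Flt3-ITD, a log2 fold change of 2.02 ± 0.19 (SE, n = 3 libraries; edgeR adjusted p = 5.97e-06). Cavin2 stood at 97.6 CPM in Vwf-positive cells against 37.1 CPM in Vwf-zero cells of NPMc+, 36.4 CPM against 10.4 CPM in those of Flt3-ITD, and 64.8 CPM against 2.04 CPM in those of NPMc+/Flt3-ITD, a log2 fold change of 1.75 ± 0.30 (SE, n = 3 libraries; edgeR adjusted p = 0.00512). Both rose, and the Vwf-positive sum was the higher in each library. The size of the rise differed between libraries. By library the log2 ratios of Pf4 CPM were 1.32 (NPMc+), 2.51 (Flt3-ITD) and 3.15 (double mutant). Those of Cavin2 were 1.40, 1.81 and 4.99 in the same order. Each SE of a fold change is that of the edgeR fit, which borrows from other genes. It does not measure the spread between the 3 libraries. Nupr1 rose by 0.84 ± 0.16 (SE, n = 3 libraries; edgeR adjusted p = 0.01001) on the log2 scale, Clu by 1.29 ± 0.23 (SE, n = 3 libraries; edgeR adjusted p = 0.00684) and Trim47 by 0.84 ± 0.15 (SE, n = 3 libraries; edgeR adjusted p = 0.00636). For Selp the log2 fold change was -0.02 ± 0.21 (SE, n = 3 libraries; edgeR adjusted p = 0.993) and for Itga2b 0.51 ± 0.17 (SE, n = 3 libraries; edgeR adjusted p = 0.323), and neither passed.

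By list, 4 of 30 platelet-biased genes rose (Clu, Fhl1, Cd9 and Cavin2), as did 3 of 26 mature megakaryocyte genes (Pf4, Rap1b and Serpine2), 5 of 26 aged stem cell genes (Clu, Nupr1, Cavin2, Plscr2 and Fhl1) and 1 of 36 LT-HSC genes (Trim47); in none of these lists did a gene fall, against 0.209% of all genes that rose and 0.388% that fell. Of 21 erythroid genes 3 rose (Sphk1, Mt2 and Cited4) and none fell, with a median of 0.41. Among the mutants, Sphk1 and Mt2 had the higher CPM in Vwf-positive cells for NPMc+ only. Sphk1 had 33 UMIs in Vwf-positive cells of NPMc+, 0 for Flt3-ITD and 0 for the double mutant. The Mt2 counts were 103, 0 and 1 in the same order. Cited4 was higher in Vwf-positive cells of each mutant library, on 23, 2 and 6 UMIs. Cd9, Rap1b, Serpine2, Plscr2, Sphk1, Mt2 and Cited4 are named after their values were seen. The median log2 fold change was 0.44 for platelet-biased genes, 0.43 for mature megakaryocyte genes, 0.53 for aged stem cell genes and 0.16 for LT-HSC genes, against -0.03 for all genes tested. Of 22 lymphoid and MPP genes 9 fell and none rose, with a median of -0.56, and of 27 myeloid genes 7 fell and none rose, with a median of -1.03. Among the 9, Dntt, Ly6d and Tcf7, named after their values were seen, had most of their UMIs in the double mutant. Their Vwf-positive UMIs were 25, 5 and 9 there, 0, 0 and 0 for NPMc+, and 0, 0 and 1 for Flt3-ITD. Tcf7 was higher in Vwf-positive cells of Flt3-ITD, at 2.42 CPM against 0.804 CPM in Vwf-zero cells. None of 44 G1/S genes passed, with a median of -0.10. Of 52 G2/M genes 2 rose and none fell, with a median of 0.57, above the other medians given here. The libraries went opposite ways for this list. Of the 27 genes of the list with 20 CPM or more in Mx, 16 were 1.5-fold or more higher by ratio of CPM and 0 lower for NPMc+. The counts were 7 and 0 for Flt3-ITD, but 0 and 16 for the double mutant. Of all 6777 genes with 20 CPM or more in Mx, 95 were higher and 122 lower for NPMc+. The same counts were 438 and 602 for Flt3-ITD, and 608 and 738 for the double mutant.

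Plac8 stood at 528 CPM in Vwf-positive cells against 973 CPM in Vwf-zero cells of NPMc+, 659 CPM against 1103 CPM in those of Flt3-ITD, and 1872 CPM against 2699 CPM in those of NPMc+/Flt3-ITD, a log2 fold change of -0.78 ± 0.07 (SE, n = 3 libraries; edgeR adjusted p = 4.21e-06). Cd34 stood at 72.2 CPM in Vwf-positive cells against 139.7 CPM in Vwf-zero cells of NPMc+, 194 CPM against 329 CPM in those of Flt3-ITD, and 317 CPM against 452 CPM in those of NPMc+/Flt3-ITD, a log2 fold change of -0.82 ± 0.11 (SE, n = 3 libraries; edgeR adjusted p = 0.000324). Cd48 changed by -1.10 ± 0.13 (SE, n = 3 libraries; edgeR adjusted p = 6.88e-05) on the log2 scale. All 3 fell, and the Vwf-positive sum was the lower in each mutant library, as it was in Mx.

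Among 6775 genes measured in both analyses, 15 rose across the mutant libraries and 288 were higher in Mx; 8 were in both sets, 53.3% of the first and 2.78% of the second. Of all 6775 genes 4.25% were higher in Mx and 0.221% rose across the mutants. Those in both sets were Bex4, Cavin2, Fhl1, Meg3, Nupr1, Pf4, Pygm and Trim47. Of 21 genes that fell across the mutant libraries and 344 that were lower in Mx, 6 were in both sets, 28.6% and 1.74%, among them Cd34, Cd48, Ffar2, Plac8 and Tyrobp, where 5.08% of all genes were lower in Mx and 0.310% fell across the mutants. Cd52 was higher in Mx and fell across the mutants. Bex4, Pygm and Tyrobp are named only through these counts, after their values were seen. Of the 36 genes called across the mutants, 28 (77.8%) had the same sign in Mx, against 54.1% of all 6775 genes. The 2 analyses share no library.

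Whether the difference between Vwf-positive and Vwf-zero cells was itself different in the mutants and in Mx was tested by an interaction term over 13426 genes, with the single Mx pair assumed to vary like the mutant pairs. By edgeR's quasi-likelihood test the difference was lower in the mutants for 3 genes (0.0223%) and higher for none, with 261 and 304 past an unadjusted p under 0.05. They were Cd52, a lymphocyte surface gene, Ly6c2, a surface gene of the monocyte marker list, and Trbc1, a T cell receptor constant gene. The Vwf-positive cells of Mx held 10 UMIs of Trbc1 and 11 of Ly6c2. Only 1 member had 3 or more thinned UMIs of T or NK markers, and only that cell had 3 or more of monocyte markers. How many of the Trbc1 and Ly6c2 UMIs came from it was not tested. With the cells with other-lineage markers left out 0 genes passed (249 lower and 250 higher at an unadjusted p under 0.05), and the lists behind those markers hold Trbc1 and Ly6c2. None passed without the block, on thinned UMIs alone or with any 1 mutant library left out either, 1 passed by DESeq2 and 11 with edgeR's older method. A p that misses the threshold does not show that the remaining genes, Pf4 and Plac8 included, differ equally in the mutants and in Mx.

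**Figure D5:**
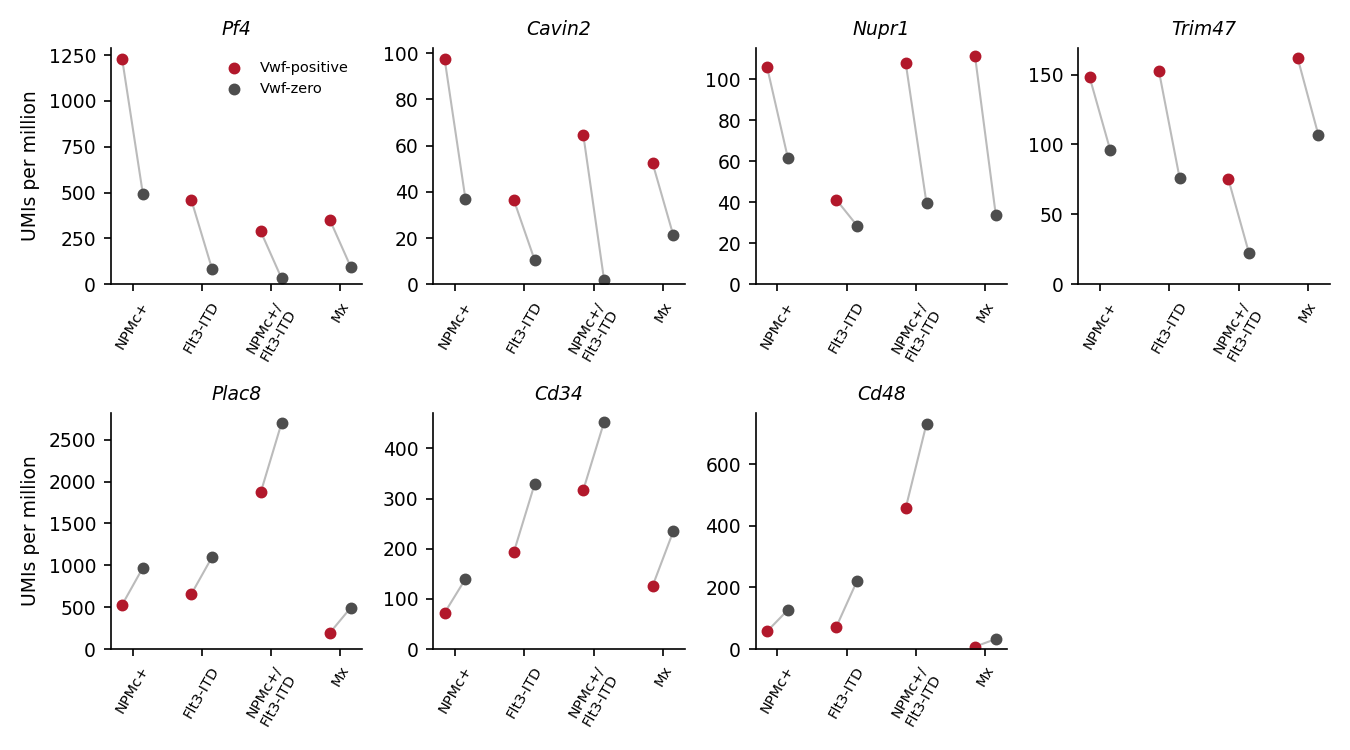
CPM of 7 genes in Vwf-positive (red) and Vwf-zero (grey) cells of each library, joined by a line; each point is a sum over the cells of 1 library. Pf4, Cavin2, Nupr1 and Trim47 are higher in Vwf-positive cells in all 4 libraries, and Plac8, Cd34 and Cd48 are lower in all 4.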

How the data were processed

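Each library was deposited as a table of UMI counts per gene and barcode, made by the authors; the submitters' processing notes name STARsolo, STAR 2.7.0c and the mm10 build, and filters applied before deposit are not given in the sources used here. Barcodes under 3000 UMIs, under 500 genes or above 10% mitochondrial UMIs were dropped, leaving the analysed cells (2250 of NPMc+, 2175 of Flt3-ITD, 2991 of NPMc+/Flt3-ITD, 2311 of Mx). Each was thinned to 3000 UMIs at random to assign its Vwf class; no doublet caller was run and 0 columns were left unused. Within Mx, with 1 library and cells that are not replicates, summed counts were compared as ratios of CPM with exact conditional binomial 95% intervals, for genes with at least 20 CPM in either class, and called at 1.5-fold. Intervals cover counting error only.

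Sums of Vwf-positive and Vwf-zero cells in the mutant libraries were tested with edgeR 4.0.16 (R 4.3.3, limma 3.58.1; TMM, filterByExpr, library as block, Benjamini-Hochberg adjusted p under 0.05). Both sums of a block come from the same library, which is where the pairing comes from. Each SE printed is that of the fit and not the spread between libraries. The fit borrowed from other genes through a prior of 17.1 degrees of freedom. For the interaction term the prior had 23.8. edgeR's older quasi-likelihood method estimated an infinite prior, so the edgeR 4 method was taken after this was seen. Alternatives included DESeq2 1.42.0, RLE size factors, other depths, floors, draws and cell filters, and leaving out each library. The fit was also run on simulated data, with 1 dispersion for all genes and the same fold in each mutant library. It called 55.1% of genes raised 2-fold, 48.9% of those lowered 2-fold and 0.0227% of unchanged genes. Real genes can differ in dispersion and in fold between libraries, so these shares need not hold for them. Python 3.11.15, numpy 2.4.6, scipy 1.17.1, pandas 2.3.3 and matplotlib 3.10.9 were used.

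The members and the 25 gene lists were chosen with earlier results of these data known. Named genes were the 15 highest and 10 lowest ratios with 20 CPM or more, in each list the 4 with the greatest differences, and a set of known markers, less clone names, mitochondrial, sex-linked and antigen receptor genes; of the 120 found, those the results turn on are given, and genes outside the rule are said to be named after their values were seen. Some genes are not reported here. Promoter sequences are from RefSeq tables on GRCm38.p6.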

Additional observations from a re-analysis of the deposited data

Results flagged for a closer look

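By the interaction term of edgeR's quasi-likelihood test, 3 genes had a Vwf-positive difference in the mutant libraries that was not that of Mx, and all are named here after their values were seen. Cd52 had 39 UMIs in Vwf-positive cells against 1208 in Vwf-zero cells of NPMc+, 9 against 1247 for Flt3-ITD, 8 against 1353 for the double mutant, and 50 against 1000 for Mx; its log2 difference was -1.92 (SE 0.34, adjusted p = 0.0311). Trbc1 had 0 UMIs in Vwf-positive cells against 213 in Vwf-zero cells of NPMc+, 0 against 89 for Flt3-ITD, 8 against 7705 for the double mutant, and 10 against 180 for Mx (adjusted p = 0.0311). Ly6c2 had 0 UMIs in Vwf-positive cells against 125 in Vwf-zero cells of NPMc+, 0 against 78 for Flt3-ITD, 0 against 53 for the double mutant, and 11 against 21 for Mx (adjusted p = 0.00151), and no fold is given for Trbc1 and Ly6c2 because the Vwf-positive sum was 0 in 2 mutant libraries for Trbc1 and in all 3 for Ly6c2. In Mx a single Vwf-positive cell had 3 or more thinned UMIs of T or NK markers, and it alone had 3 or more of monocyte markers. How many of the Trbc1 and Ly6c2 UMIs came from it was not tested. With cells with other-lineage markers left out, by lists that hold Trbc1 and Ly6c2, 0 genes passed (249 lower and 250 higher at an unadjusted p under 0.05). With DESeq2, or with RLE size factors, 1 gene passed, and without the block, on thinned UMIs or with any 1 mutant library left out 0 did.

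The barcodes left out by the cell filters also held Vwf. It stood at 23.3 CPM (9.35 to 47.9) in the 222 barcodes left out of NPMc+, on 7 UMIs, above the 21.7 CPM (10.8 to 38.8) in the 415 barcodes left out of Mx, on 11 UMIs. The intervals overlapped almost wholly.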

How the results depend on the processing

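The counts of genes past 1.5-fold in Mx rest on few UMIs and moved with most settings from 289 higher and 345 lower. They were 1095 and 962 for summing only the thinned UMIs, 2729 and 961 for requiring 2 Vwf UMIs, 69 and 62 for membership from all UMIs, 169 and 162 for thinning to 5000 UMIs, 485 and 549 for totals without mitochondrial and ribosomal protein genes, 639 and 772 for a floor of 10 CPM, 51 and 58 for a floor of 50 CPM, 1188 and 1332 for male cells only, 726 and 782 for female cells only, 192 and 318 for leaving out the top 1% of cells of each gene, 469 and 529 for leaving out cells with Pf4 or Ppbp, 1778 and 1414 for leaving out cells with 3 or more G2/M UMIs, 765 and 765 for cells of middle depth, 105 and 118 for the 108 cells, 133 and 699 for leaving out the top cell of each gene. The share of Vwf-positive cells was 7.53% for membership from all UMIs, 4.62% for thinning to 5000 UMIs, 4.46% for female cells only, 1.61% for leaving out cells with 3 or more G2/M UMIs. The platelet-biased median kept its sign under every alternative run, between 0.11 and 0.51, the highest on 3 cells with 2 Vwf UMIs. Medians of 0.1 or more either way that changed sign were erythroid genes, 0.016 for summing only the thinned UMIs, 0.060 for membership from all UMIs, 0.079 for thinning to 5000 UMIs, 0.068 for the second draw, 0.10 for a floor of 50 CPM, 0.060 for female cells only, 0.18 for the 108 cells; TGF-beta pathway genes, -0.014 for thinning to 5000 UMIs, -0.018 for the second draw, -0.063 for a floor of 50 CPM, -0.074 for leaving out the top cell of each gene; mature megakaryocyte and platelet genes, -0.35 for male cells only, -0.031 for leaving out the top 1% of cells of each gene; LT-HSC identity genes, -0.068 for female cells only; cytokine receptors and feedback, -0.080 for female cells only; imprinted genes, -0.021 for female cells only. Log2 ratios of named genes past 1.5-fold that changed sign were Flt3 0.21 for summing only the thinned UMIs; Gp5 0.36, Irgm1 -0.0048, Ube2c 0.44 for membership from all UMIs; Gp5 0.28, Ube2c 0.021 for thinning to 5000 UMIs; Ccnb2 -1.05, Ecm1 -0.067, Gp5 0.50, Kazald1 -0.13 for the second draw; Flt3 0.37, Pf4 -1.79, Runx3 0.083 for male cells only; Gimap4 -0.81, Kazald1 -0.030, Mt1 -0.18, S100a9 0.82, Sult1a1 -0.75 for female cells only; Car1 0.56, Pf4 -0.18, S100a9 0.77 for leaving out the top 1% of cells of each gene; Ngp 0.15, S100a9 0.34 for leaving out cells with other-lineage markers; Pf4 -0.065 for leaving out cells with Pf4 or Ppbp; Pf4 -0.44 for cells of middle depth; Extl3 -0.52, Gp5 0.72, Hes1 -0.086, Irgm1 -0.55, Kazald1 -0.32, Rrm2 0.17, Spns3 0.14, Ube2c 0.90 for the 108 cells. Among smaller values, 12 of 14 named genes under 1.5-fold changed sign under at least 1 alternative, with values between -1.70 and 0.78, and 14 of 14 lists with a median under 0.1, with values between -0.27 and 0.31. The counts of genes that rose across the mutant libraries, fell, and had an interaction were 28, 52 and 3 as reported, 6, 22 and 1 by DESeq2, 24, 42 and 1 with RLE size factors, 76, 127 and 11 with no filter on low counts, 1, 3 and 0 on thinned UMIs, 17, 33 and 0 without other-lineage cells and 76, 117 and 11 with the older quasi-likelihood method. Leaving out 1 mutant library gave 0 to 2 rising, 0 to 8 falling and 0 interaction genes. Without the library as a replicate block (no pairing of the sums of 1 library) 0 rose, 0 fell and 0 interaction genes passed, with 125 higher and 227 lower at an unadjusted p under 0.05. The 108 cells, leaving out the top cell, the older method and, for the mutants, leaving out other-lineage cells were chosen after seeing the data. The causes of these changes were not tested. Of the single-gene log2 ratios under alternatives, 783 moved by less than their counting interval and 190 moved beyond it with the same sign; 52 edgeR fold changes lost their call and 22 gained one. Alternatives with under 10 Vwf-positive cells (3 with 2 Vwf UMIs, 7 with under 3 G2/M UMIs) gave no values for single genes or other lists. Depth limits the values of the class, since 20 CPM is few UMIs among 628879.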
